A study of Rattus norvegicus with 12 samples.

Results

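The Notch pathway was followed in the developing rat mammary gland through 10 genes: the receptors Notch1, Notch2, Notch3 and Notch4, the ligands Jag1, Jag2 and Dll1, the DNA-binding effector Rbpj, and the target genes Hes1 and Hey1. The genes were taken by symbol from the annotation of the array. They had 12 of its 30367 probes and made up 10 of its 26456 gene symbols, with a pair of probes each for Notch1 and Rbpj and 1 probe for each other gene. The rule that picks their probes uses no measured value, though results of these data were known when the genes were chosen.

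Notch receptors sit in the cell membrane and are activated by ligands on a neighbouring cell. Ligand binding lets proteases cut the receptor, and its intracellular part moves to the nucleus, where it joins RBPJ and switches on genes such as Hes1 and Hey1, which encode transcriptional repressors. In the mammary gland Notch signalling is known for its part in the choice between luminal and basal fate, and NOTCH4 and NOTCH3 are known from endothelial cells and from the mural cells that wrap small vessels.

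All arrays held RNA of female Wistar rats, and what differed was the diet of their mothers in pregnancy and the age. NP mothers had a normal diet with 17.0% protein and LP mothers a low one with 8.8% protein, each as 25 g of feed per day. After birth the litters of both groups were reduced to 6 females and all animals had the same standard chow. The lumbar gland (pairs 4 and 5), freed of the lymph nodes that could be seen, was taken at day 21 or day 28. Each of the 4 groups (NP and LP at each day) had 3 arrays, and a replicate is named as in its label, for example 4a. The sources used here do not say whether the 3 rats of a group came from different mothers, so the p-values measure the spread between these arrays. The restriction ended at birth, and the tissue was the whole gland with its fat pad, so that fewer cells of a type and less RNA per cell cannot be told apart.

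Sequences are shown first for what RBPJ is known to bind. RBPJ recognises the letters TGGGAA, and its longer form GTGGGAA. These letters were searched on both strands in the 250 bases before the transcript start in the RefSeq promoter table (assembly GRCr8), which held such windows for 9 of the 10 genes. The shorter form was found in 4 of them (Notch4, Dll1, Rbpj and Hes1) and in 22.1% of all 33469 windows of this length. The longer form, each match of which also holds the shorter, was found in Hes1 and Dll1, and in 5.27% of all windows. These 2 windows are printed from 5′ to 3′ on the strand of the gene, with the matched letters in capitals. Hes1 lies on the minus strand at chr11:84213046-84213295 and Dll1 on the minus strand at chr1:64993275-64993524.
Hes1: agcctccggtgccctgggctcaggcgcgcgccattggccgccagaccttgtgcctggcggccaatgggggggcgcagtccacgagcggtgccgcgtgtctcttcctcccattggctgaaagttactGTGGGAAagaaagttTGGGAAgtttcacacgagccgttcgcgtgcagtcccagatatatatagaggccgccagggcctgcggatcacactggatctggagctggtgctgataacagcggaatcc
Dll1: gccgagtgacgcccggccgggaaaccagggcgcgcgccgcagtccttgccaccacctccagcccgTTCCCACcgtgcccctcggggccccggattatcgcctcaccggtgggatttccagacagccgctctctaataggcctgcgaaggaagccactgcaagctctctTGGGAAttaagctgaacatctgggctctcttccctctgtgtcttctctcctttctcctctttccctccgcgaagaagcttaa
In Hes1 both matches lay on the strand of the gene, with first bases 123 and 109 bases before the start and hence 14 bases apart, and the longer form began at 124. In Dll1 one match lay on each strand, at 185 and 82 bases before the start. A match of letters does not show that the site is bound, and the windows of Notch1, Notch2, Notch3, Jag1 and Jag2 held none of these letters, as did those of Nrarp and Heyl, other known Notch targets.

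What the array read for a gene was a probe of 60 bases, and 3 probes are shown because results below depend on them. The Hey1 probe is the only one for that target gene. The Notch1 and Rbpj probes are those nearer the 5′ end in the genes that had a pair. They lie at positions 482, 7022 and 972 of their transcripts and are placed on rn4 at chr2:95175974-95176033 (plus strand), chr3:4634122-4634181 (minus) and chr5:4664854-4664913 (plus). All letters are in lower case, since no part is singled out.
Hey1: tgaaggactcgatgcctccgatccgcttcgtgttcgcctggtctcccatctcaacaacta
Notch1: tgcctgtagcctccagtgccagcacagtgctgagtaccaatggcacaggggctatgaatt
Rbpj: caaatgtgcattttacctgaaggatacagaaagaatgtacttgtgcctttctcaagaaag
The probe with the higher mean signal over the 12 arrays represented a gene. For Notch1 that was the one at chr3:4631829-4631888 and for Rbpj the one at chr5:4668255-4668314. The array annotation puts both Rbpj probes on chromosome 5, 3401 bases apart in the genome and 3247 apart in the transcript. RefSeq has Rbpj on chromosome 14 of GRCr8, over 184855 bases, and lists on chromosome 5 a pseudogene named Rbpjl2, with the synonym Rbpsuh. The pseudogene as listed spans 1399 bases, less than the distance between the probes, and whether either probe matches it was not tested. The Rbpj values can therefore hold signal from more than 1 locus, and its level is reported as uncertain.

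The other main probes were placed on rn4 as follows. Hes1 was read at chr11:72603477-72603538, Notch2 at chr2:192986490-192986549, Notch3 at chr7:12688358-12688417 and Notch4 at chr20:4263481-4263540. The ligand probes lay at chr3:125181316-125181375 for Jag1, chr6:137909747-137909806 for Jag2 and chr1:54240861-54240920 for Dll1. The annotation gives each as part of a transcript.

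All 12 probes were well above background on all 12 arrays. Over the arrays, 74.76% to 79.63% of gene spots passed the scanner's background test and none was saturated. All arrays of day 21 were on 1 slide and scanned together, and all of day 28 on another, so that day cannot be told apart from slide and scan. All 11 endothelial, 7 mural and 11 luminal epithelial marker genes were well above background on every array, as were all 9 adipocyte genes on the array. The LP array 6a of day 21 stood apart. It correlated with its fellows at a median r of 0.96 (0.974 to 0.989 for the rest), its summed lymphocyte signal was 0.343 against 11.3 to 28.1 elsewhere (in units of the array's 75th percentile), and its luminal and skeletal muscle sums were the highest of all arrays. Differences that moved by over 1.5 times, changed sign or lost a call without it are given both ways below. The number of arrays limits the precision.

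Signals are given on the log2 scale relative to the 75th percentile of the array, where 0 is the signal at that percentile. They can be compared between arrays for 1 gene, and not between genes. A difference of 1 is 2-fold. Tests are from limma over 23209 probes, with Benjamini-Hochberg adjustment over all of them.

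**Figure D1:**
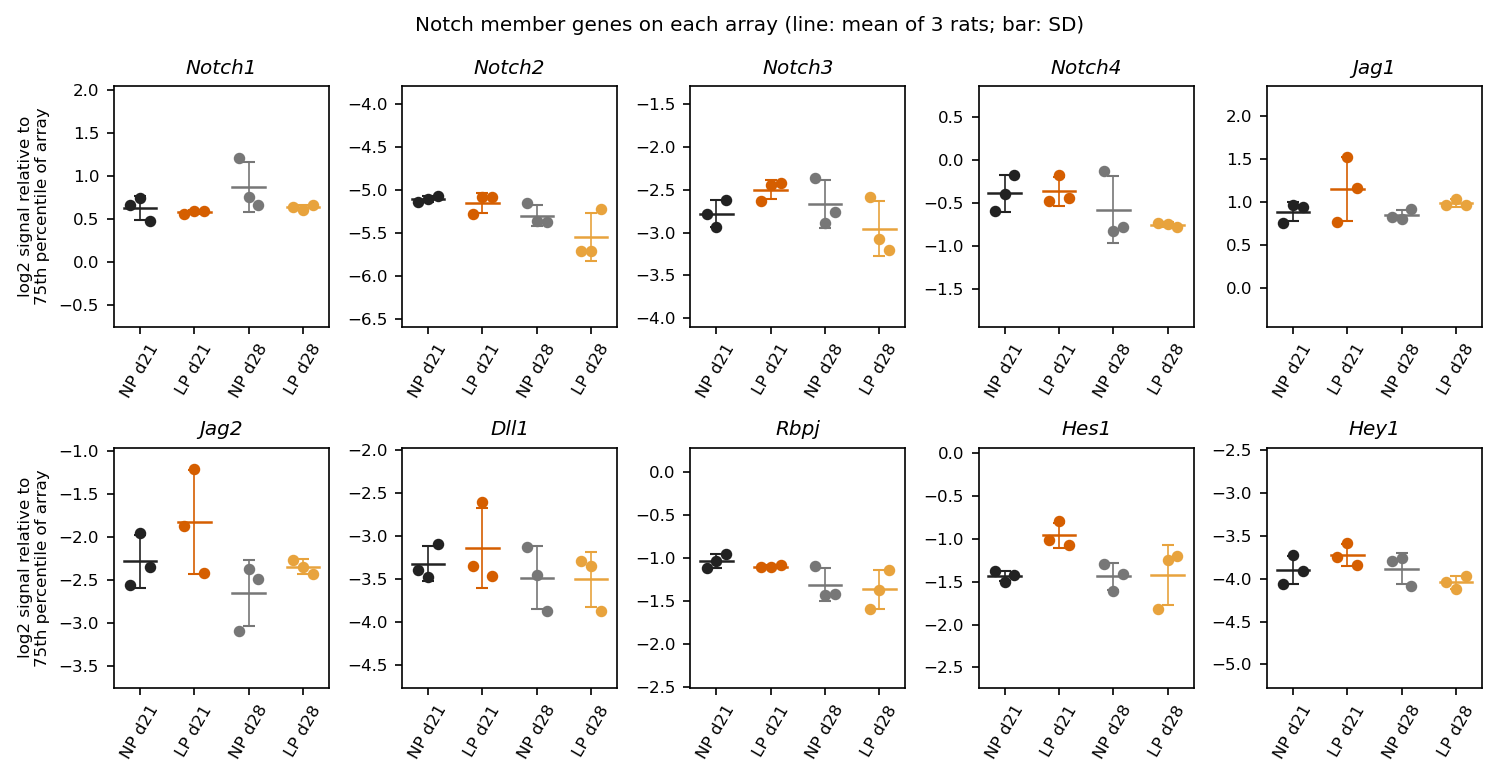
Log2 signal of the 10 Notch genes on each of the 12 arrays, relative to the 75th percentile of the array, in the NP and LP groups of day 21 (d21) and day 28 (d28). Points are rats, lines the mean of 3 and bars the SD. In the Hes1 panel the LP points of day 21 (-1.07 to -0.80) lie above all NP points of that day, and in the Jag2 panel 1 LP point of day 21 lies at -1.20, above all the others.

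At day 21 the target gene Hes1 read 1.38-fold above NP in LP rats, with the lowest p of the 10 genes, and no gene of the pathway passed the adjusted test. The ligand Jag2 differed by nearly as much, with a larger error, and by more than Hes1 with the slide row as a term (0.47 against 0.24) or without the NP array 5a (0.62 against 0.43). The NP arrays 4a, 5a and 6a read -1.38, -1.50 and -1.42 for Hes1, and the LP arrays 4a, 6a and 7c read -1.02, -0.80 and -1.07. The groups did not overlap, which also held for 11.5% of all probes, and Hes1 was the only one of the 10 genes for which it held. The difference was 0.47 (SE 0.17, 95% interval 0.10 to 0.84), with an unadjusted p of 0.0187 and an adjusted p of 0.861 in limma. It was 1 of 10 genes with an unadjusted p under 0.05, where 4.36% of all probes were.

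The Hes1 difference moved with the arrays and their place. In limma it was 0.38 (unadjusted p 0.0669) without the LP array 6a and 0.43 (unadjusted p 0.0534) without the NP array 5a. On each slide the NP arrays and 1 LP array lay in the first row and the other 2 LP arrays in the second. With the row as a term in limma the difference was 0.24 (SE 0.17, unadjusted p 0.195). The LP array in the first row lay 0.41 above the mean of its 3 NP neighbours. Whether position on the slide had a part in it was not tested further.

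Hey1, the other target gene, read -4.06, -3.73 and -3.91 on the NP arrays and -3.75, -3.59 and -3.84 on the LP arrays of day 21. The groups overlapped, and the difference was 0.17 (SE 0.13, adjusted p 0.862 in limma), or 0.10 without the LP array 6a. The 2 targets thus had differences of the same sign, of which neither passed the adjusted test.

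The receptors differed little between diets at day 21. Notch1 differed by -0.05 (SE 0.14), Notch2 by -0.05 (SE 0.14) and Notch4 by 0.03 (SE 0.19). Notch2 differed by -0.08 and Notch4 by -0.07 without the LP array 6a. Notch3 had the largest receptor difference, 0.28 (SE 0.18, adjusted p 0.862 in limma). Its NP arrays lay between -2.93 and -2.62 and its LP arrays between -2.63 and -2.42, so that a single LP array fell within the NP range. Rbpj, the DNA-binding partner of the cleaved receptors, differed by -0.06 (SE 0.13).

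The ligands all had positive differences at day 21, and these shrank or turned without 1 array. Jag2 read -2.55, -1.95 and -2.34 in NP and -1.87, -1.20 and -2.41 in LP, a difference of 0.45 (SE 0.30). Without the LP array 6a it was 0.14 (unadjusted p 0.606 in limma). Jag1 read 0.76, 0.96 and 0.94 in NP and 0.77, 1.52 and 1.16 in LP, a difference of 0.26 (SE 0.16) that was 0.08 without that array. Dll1 differed by 0.18 (SE 0.27), and by -0.08 without it. That array had the highest signal of all 12 for Jag1, Jag2, Dll1, Hes1 and Hey1, and also for the luminal and basal epithelial marker sums. The part of the cell make-up of that sample in these values was not tested.

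Of the 10 genes at day 21, 9 had a 95% interval within 2-fold in both directions and 5 within 1.5-fold. The exception at 2-fold was Jag2, whose interval was -0.21 to 1.11. The median difference of the 10 genes was 0.18, beside 0.01 over all tested probes. Without the LP array 6a it was 0.01, with 5 genes higher and 5 lower.

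At day 28 no gene of the 10 had an unadjusted p under 0.05, where 8.07% of all probes did, and the lowest adjusted p among them was 0.581 in limma. The signs of the receptor differences were all negative, as were those of 57.3% of all probes. Notch2 read -5.15, -5.36 and -5.37 in NP and -5.71, -5.70 and -5.22 in LP, a difference of -0.25 (SE 0.14). Notch1 differed by -0.24 (SE 0.14), Notch3 by -0.28 (SE 0.18) and Notch4 by -0.17 (SE 0.19). In each of the 4 the NP and LP arrays overlapped. The NP array 4f had the highest NP signal for all receptors, with 1.21 for Notch1, -2.36 for Notch3 and -0.13 for Notch4. Without it the differences were -0.07 for Notch1, -0.13 for Notch3 and 0.05 for Notch4, so their size and the Notch4 sign leaned on that array.

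Hes1 did not show at day 28 the separation of the diets seen at day 21. Its NP arrays 4f, 5f and 6f read -1.30, -1.61 and -1.41 and its LP arrays 4f, 6f and 7f read -1.82, -1.25 and -1.20. The difference was 0.01 (SE 0.17, 95% interval -0.36 to 0.38). Hey1 differed by -0.16 (SE 0.13).

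Among the ligands at day 28, Jag1 was the only one of the 10 genes whose diets did not overlap, beside 16.8% of all probes. It read 0.83, 0.80 and 0.92 in NP and 0.96, 1.04 and 0.97 in LP, and the difference was small, 0.14 (SE 0.16). Jag2 differed by 0.30 (SE 0.30), Dll1 by -0.02 (SE 0.27) and Rbpj by -0.05 (SE 0.13). All 10 intervals lay within 2-fold and 6 within 1.5-fold. The median of the 10 genes was -0.11, beside -0.05 over all tested probes.

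**Figure D2:**
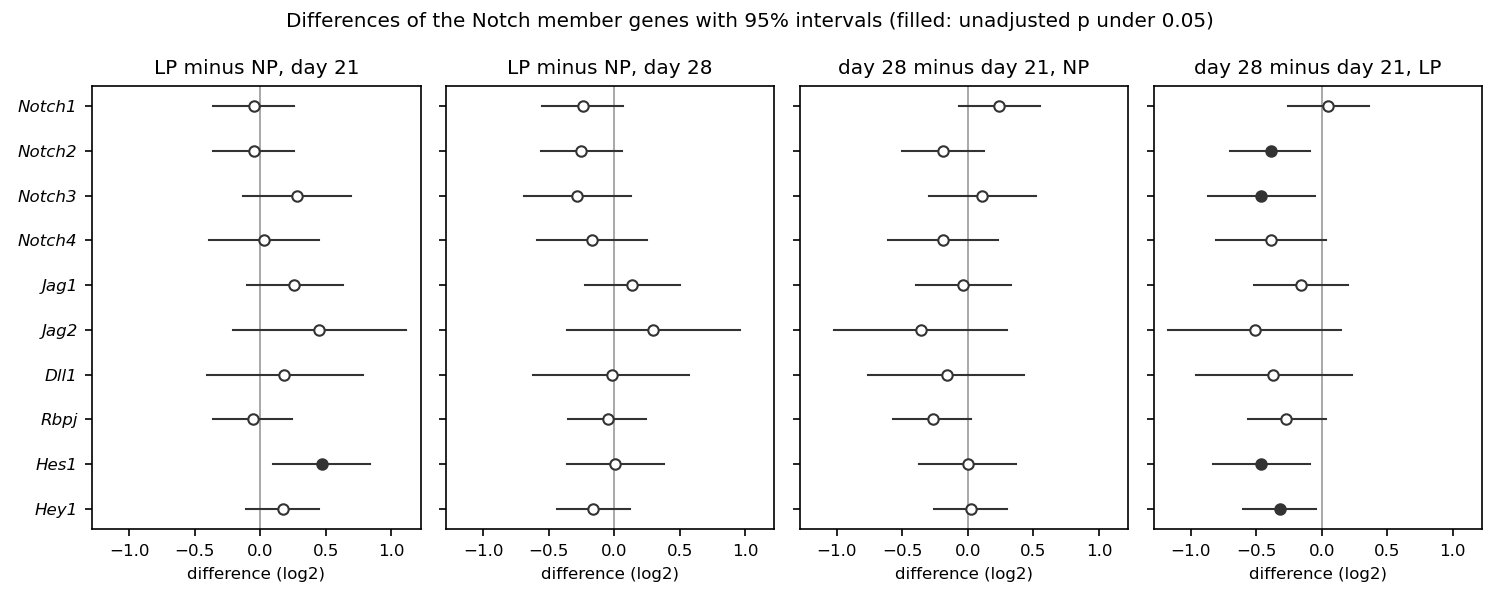
Differences of the 10 Notch genes on the log2 scale with 95% intervals, for LP minus NP at each day and day 28 minus day 21 in each diet. Filled points have an unadjusted p under 0.05 (1, 0, 0 and 4 genes from left to right), and none passed the adjusted test.

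The comparison of the days asked how the pathway moved over the week in which the ducts grow. In LP rats 9 of the 10 genes read lower at day 28 than at day 21, beside 53% of all probes. Without the LP array 6a of day 21 it was 8. With all arrays 4 of the 9, Notch2, Notch3, Hes1 and Hey1, had an unadjusted p under 0.05. This was so for 10.1% of all probes, 5.65% in the downward direction. The adjusted p was at least 0.391 in limma for each.

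Hes1 read -1.02, -0.80 and -1.07 in LP rats at day 21 and -1.82, -1.25 and -1.20 at day 28, without overlap, a difference of -0.46 (SE 0.17, unadjusted p 0.0206). Hey1 read -3.75, -3.59 and -3.84 and then -4.04, -4.12 and -3.97, again without overlap, a difference of -0.32 (SE 0.13, unadjusted p 0.0292). The signals of day 28 thus lay 1.37-fold (Hes1) and 1.25-fold (Hey1) below those of day 21, short of the adjusted limit.

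Notch3 read -2.63, -2.45 and -2.42 at day 21 and -2.59, -3.07 and -3.20 at day 28 in LP rats, a difference of -0.46 (SE 0.18). Notch2 read -5.28, -5.08 and -5.08 and then -5.71, -5.70 and -5.22, a difference of -0.39 (SE 0.14). In both receptors 1 array of day 28 lay within the range of day 21. Notch4 read -0.48, -0.17 and -0.44 and then -0.73, -0.75 and -0.78, with no overlap and a difference of -0.39 (SE 0.19, unadjusted p 0.0665).

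Arrays of LP rats did not overlap between the days for 5 of the 10 genes, beside 18.7% of all probes: Notch4, Hey1, Hes1 and Rbpj were lower and Notch1 higher, the last by only 0.05. The differences of the ligands were -0.16 for Jag1 (SE 0.16), -0.51 for Jag2 (SE 0.30) and -0.37 for Dll1 (SE 0.27). Without the LP array 6a of day 21 they were 0.03, -0.20 and -0.10. The median over the 10 genes was -0.38, beside -0.02 over all tested probes, and -0.26 without that array. Without it none of the 10 genes had an unadjusted p under 0.05, and 1 did without the array 4f or the array 6f of day 28. Of all 23209 probes 1687, 1802 and 2026 did in these 3 settings, beside 2346 with all arrays. With another background correction (normexp) Notch2 differed by 0.02 and Hey1 by -0.02, so that for these dim probes the difference was not kept.

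In NP rats none of the 10 genes had an unadjusted p under 0.05 between the days, where 12.8% of all probes did. Notch1 read 0.67, 0.75 and 0.48 at day 21 and 1.21, 0.76 and 0.66 at day 28, a difference of 0.24 (SE 0.14). Hes1 differed by 0 (SE 0.17) and Hey1 by 0.02 (SE 0.13). Rbpj differed by -0.27 (SE 0.13), the lowest p of the 10 genes (unadjusted 0.0665). Notch2 was the only gene whose days did not overlap in NP rats, beside 18.7% of all probes, with a difference of -0.19 (SE 0.14).

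Over both diets together, 2 of the 10 genes had an unadjusted p under 0.05 between the days, Notch2 (-0.29, SE 0.10, adjusted p 0.152 in limma) and Rbpj (-0.27, SE 0.09, adjusted p 0.164), where 19.2% of all probes did. The second Rbpj probe differed by 0.09 (SE 0.13). Arrays of the 2 days did not separate for any of the 10 genes, and did for 3.73% of all probes.

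Whether the diet difference itself changed from day 21 to day 28 was tested as an interaction. No gene of the 10 had an unadjusted p under 0.05, where 2.26% of all probes did, and all adjusted p values were 1 in limma. The estimate was negative for 9 genes, beside 57.6% of all probes. It was negative for 6 without the LP array 6a of day 21, where those of Jag1, Jag2 and Dll1 were 0.06, 0.17 and 0.06. With all arrays the largest were -0.56 for Notch3 (SE 0.26, unadjusted p 0.0561), -0.45 for Hes1 (SE 0.23, p 0.0833) and -0.34 for Hey1 (SE 0.18, p 0.087). Their 95% intervals were -1.14 to 0.02, -0.97 to 0.07 and -0.73 to 0.06. The difference of Hes1 between diets at day 21 is thus not shown to differ from that at day 28.

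The spread between rats set these limits. The residual SD of the main probes was between 0.14 (Hey1) and 0.39 (Jag2) on the log2 scale, beside a median of 0.23 over all tested probes. Spots of the same probe on 1 array differed by less, with a median SD of 0.02 to 0.12 over the main probes. The second Notch1 probe, the one printed above, differed between diets by -0.07 at day 21 and -0.41 at day 28. Both had the sign of the main probe, with a larger SE of 0.25. This second probe was dim, with group means of -5.22 to -4.81, where those of the main probe were 0.58 to 0.87. Its shared sign is therefore weak evidence.

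Other genes of the pathway were described by a list of 57 symbols, of which 46 were on the array and 44 were tested. At day 21 1 of the 44 had an unadjusted p under 0.05 between diets, and at day 28 3 did (2.27% and 6.82%, beside 4.36% and 8.07% of all probes). Between the days it was 8 of 44 in NP rats (18.2%, beside 12.8% of all probes) and 2 of 44 in LP rats (4.55%, beside 10.1%). Without the LP array 6a the count at day 21 was 0, beside 482 of all 23209 probes (1011 with all arrays). At day 28 it then grew, with 1 gene higher and 6 lower, beside 2547 probes (1873 with all arrays). Between the days 6 were higher and 3 lower in NP rats, beside 3077 probes (2970 with all arrays). In LP rats 1 was higher and 1 lower, beside 1687 probes (2346 with all arrays). With all arrays none of the 44 genes passed the adjusted test in these comparisons, where 0.25% of all probes did between the days in NP rats. Over both diets 1 gene did, where 1.81% of all probes did.

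That gene was Rfng, which encodes a fringe enzyme that adds sugars to Notch receptors. It read -1.34 to -1.18 on the 6 arrays of day 21 and -1.70 to -1.49 on the 6 of day 28, without overlap, beside 3.73% of all probes. Rfng fell by 0.35 on the log2 scale (SE 0.06, adjusted p 0.032 in limma), with differences of -0.39 in NP rats and -0.31 in LP rats. The adjusted p was between 0.0236 and 0.0914 under other processing and between 0.0451 and 0.0838 with 1 array left out, under 0.05 in 8 of 10 and 3 of 12 of these settings (0.0688 without the LP array 6a of day 21). The 10 include the authors' deposited values, which after scaling repeat the main fit. Day cannot be told apart from slide.

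Of the 4 other ligand genes tested, Dll4 and Dlk2 met the rule for naming. Dll4, the ligand known from the tips of growing vessels, read -3.13, -3.65 and -3.83 in NP and -3.90, -4.46 and -4.17 in LP rats at day 28, without overlap, beside 16.8% of all probes. The difference was -0.64 (SE 0.25, unadjusted p 0.0268, adjusted p 0.581 in limma), and at day 21 it was -0.20 (SE 0.25). Dlk2, a gene related to the Notch ligands, differed by 1.08 at day 21 (SE 0.53, unadjusted p 0.0708), and by 0.48 (SE 0.44) without the LP array 6a. At day 28 Dlk2 also did not overlap, with -3.11, -3.10 and -2.60 in NP and -2.04, -2.04 and -1.83 in LP rats. Its sign was opposite to that of Dll4. In limma without the LP array 6a of day 21 the day 28 difference was 0.96 (SE 0.39, unadjusted p 0.0366, adjusted p 0.44). With all arrays its unadjusted p was not under 0.05.

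Nrarp, a direct target that restrains Notch signalling, differed by 0.16 at day 21 and 0.13 at day 28 (SE 0.22 each). Heyl, a relative of Hey1, differed by 0.11 and 0.07 (SE 0.14 each). Hes2 differed by -0.52 at day 28 (SE 0.20, unadjusted p 0.0258), and Rbpjl, a relative of Rbpj, by -0.55 (SE 0.22, p 0.032). None passed the adjusted test. Nrarp and Heyl each differed by 0.03 at day 21 without the LP array 6a. Of the 7 other Hes, Hey and Nrarp genes tested at day 21, 4 had a positive difference and 3 a negative one, with a median of 0.10. Without the LP array 6a 5 were positive and 2 negative, with a median of 0.03. Hey2 differed by -0.54 (SE 0.28, unadjusted p 0.0819), in the direction opposite to Hes1.

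Among genes of receptor turnover, the Deltex genes Dtx4 and Dtx2 had the lowest p values at day 21, with differences of -0.44 (SE 0.19, p 0.0468) and -0.30 (SE 0.14, p 0.0523). They differed by -0.39 (p 0.112) and -0.18 (p 0.209) without the LP array 6a. Dtx4 also had the lowest p of the interaction (0.65, SE 0.27, p 0.0382, adjusted p 1 in limma, and p 0.0729 without that array), followed by Hes2 (-0.62, p 0.0507) and Mib1, a ligase that acts on the ligands (-0.30, p 0.126). Between the days, Hey2 differed by -0.80 in NP rats (SE 0.28, p 0.0163) and the coactivator Ep300 by 0.30 (SE 0.11, p 0.0186). In LP rats Dtx3l differed by 1.01 (SE 0.41, p 0.0349).

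**Figure D3:**
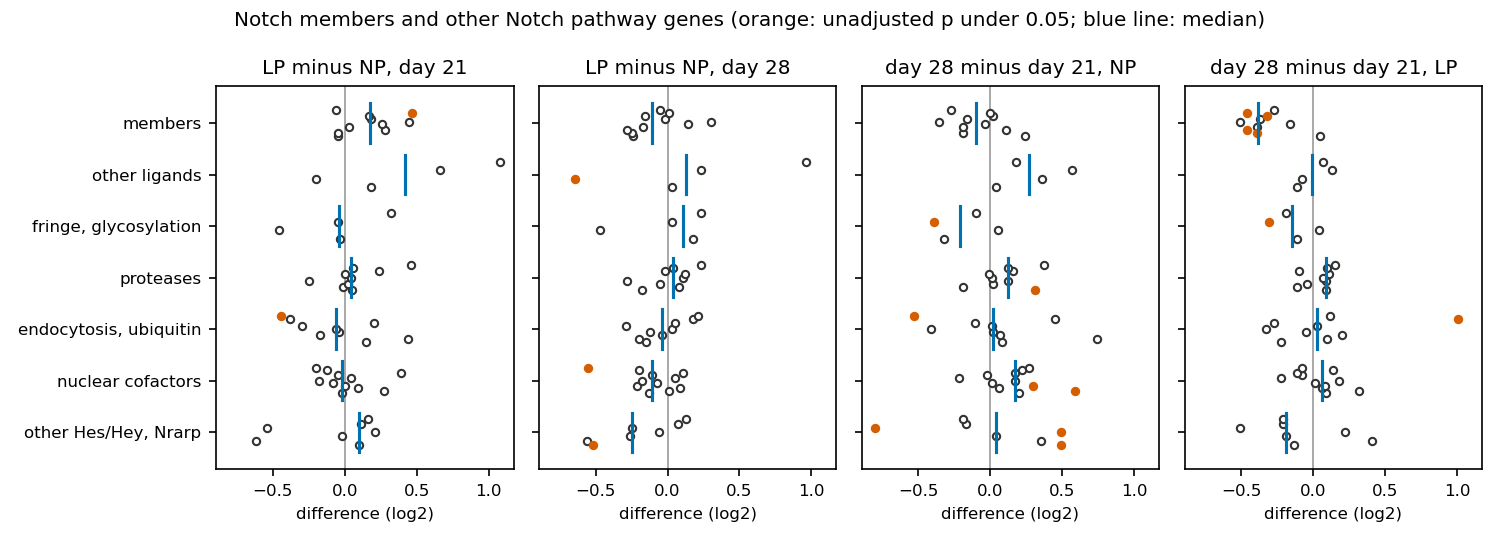
Differences on the log2 scale of the 10 Notch genes (members) and of 44 other Notch pathway genes by function, each point a gene. Orange points have an unadjusted p under 0.05 and blue lines are medians. In the LP rats between the days (right) the median of the 10 genes is -0.38, while those of the other groups lie between -0.19 and 0.09.

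Vessel markers were set beside these values because Notch4, Notch3, Hey1 and Dll4 are also known from vessels. In LP rats between the days the median of the 11 endothelial markers was -0.25 and that of the 7 mural markers -0.37, near the -0.38 of the 10 Notch genes. An unadjusted p under 0.05 in the downward direction was seen for 5 of the 11 and 2 of the 7, beside 5.65% of all probes. Without the LP array 6a of day 21 the medians were -0.30 and -0.36, with 4 and 2 such genes. Other lists also read lower in this comparison: all 5 Schwann cell markers (median -0.72, 2 with an unadjusted p under 0.05), all 7 basal markers (-0.27), all 11 luminal markers (-0.12), all 8 proliferation markers (-0.26) and 9 of 10 skeletal muscle markers (-0.96). Without that array the Schwann median was -1.04 and the proliferation median -0.21, while the basal, luminal and skeletal muscle medians were 0.04, 0.28 and 0.81. The summed mural signal of LP rats was 20.5 to 22.9 at day 21 and 15.7 to 18.9 at day 28, and the endothelial sum 20.5 to 24.5 and 17.0 to 22.9. At day 28 the median difference between diets was -0.29 for the endothelial and -0.15 for the mural markers. It was -0.60 for lymphocyte, -0.39 for Schwann cell, 0.53 for luminal, 0.83 for basal and 0.87 for proliferation markers. The other lists lay between -0.08 (skeletal muscle) and 0.36 (liver). Of the 7 basal markers 6 were higher in LP rats of day 28. The 1 lower was the only one with an unadjusted p under 0.05 in limma, beside 8.07% of all probes. The proliferation sum was 1.84 on the NP array 4f, 7.11 and 8.69 on the other NP arrays of day 28 and 7.66 to 9.94 in LP rats. Between diets at day 28 the 4 receptors and Dll4 had differences between -0.64 and -0.17 with all arrays, and Jag1 and Jag2 had 0.14 and 0.30. Without the NP array 4f Notch4 differed by 0.05. The part of vessel or other cell content in the Notch values was not tested.

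Epithelial and other markers also differed between arrays. At day 21 the luminal sum was 16.8 to 33.4 in NP and 22.3 to 63.9 in LP rats, and the basal sum 4.38 to 6.65 and 5.65 to 9.16. A sum gives most weight to the probes of highest signal. For the basal list that was Tp63, with a mean of 1.78 in NP and 1.76 in LP rats. The median differences of the luminal and basal genes were 0.84 and 0.88, or 0.48 and 0.45 without the LP array 6a. Lymphocyte markers were lower in the LP rats of day 21, with sums of 0.343 to 19.5 against 20.4 to 23.1, and 4 of the 10 genes were not well above background on the array 6a. Skeletal muscle sums ran from 1.35 to 126 in the LP rats of day 21. The part of this make-up in the Hes1, Jag1 and Jag2 values was not tested.

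**Figure D4:**
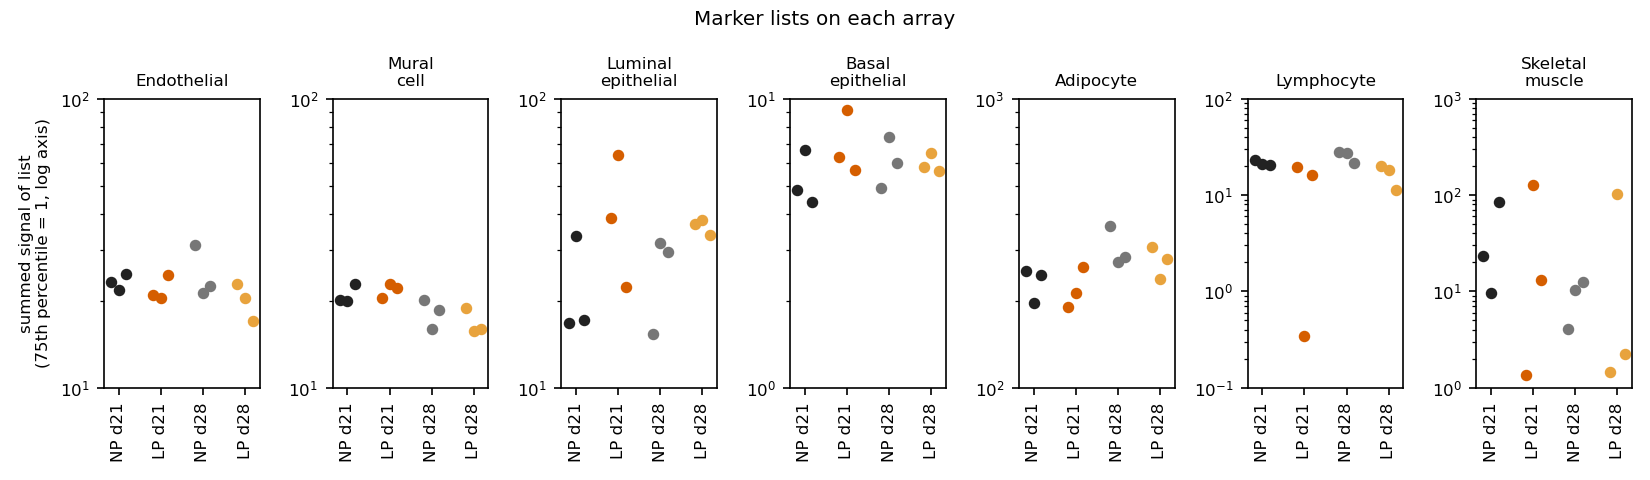
Summed signal of 7 marker lists on each array in units of the array's 75th percentile (log axis), with each point a rat. The LP array 6a of day 21 is the lowest point of the lymphocyte panel (0.343) and the highest of the luminal (63.9) and skeletal muscle (126) panels, and the mural sums of LP rats lie lower at day 28 than at day 21.

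The genes whose signal followed a Notch gene most closely over the 12 arrays were ranked by Pearson correlation among 17418 genes well above background on every array. The entries named here are the closest that carry a gene symbol rather than an accession or a placeholder name. Among the receptors, Notch1 was closest to Cul9 (r = 0.968), Notch2 to Galr2 (0.929), Notch3 to Cxxc4 (0.893) and Notch4 to Rapgef3 (0.939). Of the ligands, Jag1 was closest to Josd1 (0.922), Jag2 to Myo5b (0.963) and Dll1 to Ppm1l (0.885). Rbpj was closest to Nr4a2 (0.936), Hes1 to Bbs5 (0.903) and Hey1 to Zfp358 (0.921). These are descriptions of 12 points that share diet, day, slide and tissue make-up, and the highest of many values.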

How the data were processed

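Mammary gland RNA of 12 rats was measured on 1-colour Agilent arrays with 58717 gene spots and 4259 control spots. The authors read the arrays with Feature Extraction 10.7.3.1 and deposited, per array, processed signal intensity after background subtraction, not normalized between arrays. The authors' deposited values in the series matrix are a ratio, the same intensity over a constant for each array, and served as an alternative. Scaling to the 75th percentile removes that constant, so this alternative can only repeat the main fit. Here the log2 intensity was set against each array's 75th percentile (signal 1451.4 to 2369.6), control spots and 259 to 766 outlier spots an array were dropped, and spots of a probe were averaged. The 23209 probes detected on 3 or more of the 12 arrays were fitted with limma 3.58.1 in R 4.3.3 as 4 group means over all arrays, with 1.95 prior degrees of freedom. The fit was tested on simulated data. Calls were counted at p under 0.05, unadjusted and Benjamini-Hochberg adjusted over all probes of a contrast. All 10 genes were named. Other pathway genes were named if past the adjusted limit, or else the 3 of lowest p per contrast, with Nrarp, Heyl and Dll4 always; 1 gene so chosen is not reported here. Genes, lists and tests were chosen with earlier results of these data known. Accessions of 9 of the 10 genes matched RefSeq. Probe positions are the array annotation's on rn4, and promoters are RefSeq's on GRCr8. Alternatives were other normalization, background correction, filters, fits, probes and arrays left out. Leaving out the LP array 6a for marker lists and other pathway genes was chosen after seeing the data.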

Additional observations from a re-analysis of the deposited data

How the results depend on the processing

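No Notch gene passed the adjusted test under any of the 12 other settings or with any of the 12 arrays left out. Of the 12 settings the one with the deposited values repeats the main fit by construction and adds no evidence. The lowest adjusted p was 0.0651. The number of the 10 genes with an unadjusted p under 0.05 was 1 at day 21, 0 at day 28, 0 in NP rats and 4 in LP rats between the days, 2 over both diets and 0 in the interaction. With normexp background correction it was 2 in NP rats, 2 in LP rats, 1 over both diets and 2 in the interaction. Of all 23209 probes 3031, 1686, 4452 and 308 had such a p there. With the slide row as a term it was 0 at day 21, 1 at day 28, 1 in the interaction and 3 over both diets. For all probes these counts were 524, 835, 519 and 4280. Second probes gave 1 over both diets, beside 4467 of all probes. With 1 array left out the counts were 0 to 2 at day 21, 0 to 1 at day 28 and 0 to 2 in NP rats. In LP rats they were 0 to 6, over both diets 2 to 3 and in the interaction 0 to 2. Over all 23209 probes they were 482 to 2004 at day 21, 883 to 3424 at day 28 and 1734 to 3713 in NP rats. They were 1687 to 2877 in LP rats, 3432 to 4869 over both diets and 386 to 860 in the interaction. At day 21 the count was 0 without the NP array 5a or the LP array 6a and 2 without the LP array 4a or 7c. Over all probes it was 1329, 482, 1963 and 2004 without these arrays, so it moved for the whole array too.

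The replicate number in the labels was not shown to pair the rats. Deviations of arrays with the same number correlated at 0.09 to 0.13 between diets and -0.06 to 0.38 between days. They correlated at 0.04 to 0.22 where both diet and day differed. No values of arrays with other numbers are set beside these, so they cannot decide whether the labels pair rats. With the number as a replicate block the counts were 1 (Jag2, not Hes1) at day 21, 2 at day 28, 5 in LP rats and 3 over both diets. For all 23209 probes these counts were 1886, 1762, 2334 and 4379. Rfng had an adjusted p of 0.0914 in limma with this block. As a random block the counts of the 10 genes did not change from those of the main fit.

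Signs turned for small differences, all short of the adjusted limit. At day 21 Notch2 was 0.06 with normexp, Notch4 -0.01 with the replicate block and -0.02 with the slide row, Nrarp -0.01 with the block and -0.09 with the row, and Heyl 0.00 with the row. At day 28 Hes1 was -0.01 with the array median, -0.10 with normexp, -0.07 with the block and -0.21 with the row, Dll1 0.01 with normexp and 0.12 with the block, Jag1 -0.06 with the row, Nrarp -0.04 with the block and -0.12 with the row, and Heyl -0.05 with the row. Between the days in NP rats Hes1 was 0.01, 0.03 and 0.06 with quantile, median and normexp, Notch2 0.20 with normexp and Rbpj 0.09 by its second probe. In LP rats Notch2 was 0.02 with normexp, Notch1 -0.05 and Rbpj 0.08 by the second probe. Over both diets Notch2 and Hey1 were 0.11 with normexp and Rbpj 0.09 by the second probe. The Rbpj interaction was 0.00, -0.01 and -0.01 with quantile, median and second probe. The cause was not tested.

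With 1 array left out these also turned sign. At day 21 Notch4 ran from -0.08 to 0.14, Notch1 from -0.13 to 0.01, Notch2 from -0.08 to 0.02, Dll1 from -0.08 to 0.34, Nrarp from 0.00 to 0.33, Dll4 from -0.39 to 0.01. At day 28 Notch4 ran from -0.29 to 0.05, Dll1 from -0.22 to 0.16, Rbpj from -0.17 to 0.06, Hes1 from -0.10 to 0.21, Heyl from -0.05 to 0.14. Between the days in NP rats Hey1 ran from -0.06 to 0.12, Hes1 from -0.07 to 0.08, Jag1 from -0.10 to 0.00, Notch3 from -0.05 to 0.22, Dll1 from -0.34 to 0.03. Between the days in LP rats Jag1 ran from -0.35 to 0.03. In the interaction Rbpj ran from -0.11 to 0.12, Jag1 from -0.31 to 0.06, Jag2 from -0.44 to 0.17, Dll1 from -0.40 to 0.06, Notch4 from -0.32 to 0.02.
Few arrays per group and the dim Notch2, Hey1 and second Notch1 probes limit these results.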
